A study of Mus musculus with 5 samples.

Results

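H3K9me3 islands of matched extent are regions called enriched for histone H3 trimethylated at lysine 9 over nearly the same ground with and without L-proline. An island is a broad enriched region called in 1 library. The islands described here were autosomal islands of untreated mouse embryonic stem cells (ESCs) that met exactly 1 island of L-proline-induced cells (PiCs), which met no other. Both starts and both ends lay within 400 bp of each other and both widths were under 10 kb. The rule chose 3340 such islands, which were 13.7% of the 24422 autosomal PiC islands and 18.9% of the 17697 autosomal ESC islands. They were chosen by the starts, ends and widths of the islands in both lists, so every value of extent and every H3K9me3 tag count below is a description and carries no test.

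The PiCs were TBV2 cells, a wild-type ESC line of strain 129/SvP, kept for 5 days with 500 µM L-proline at low density on gelatin without feeder cells. The ESCs were the same line under the same conditions without added L-proline, and the medium of the line held leukemia inhibitory factor and lacked non essential amino acids. ChIP-seq, in which antibody-bound chromatin is sequenced, gave 1 library for each of 2 marks, H3K9me3 and H3K36me3, in each condition. With 1 library per group no difference between conditions has a replicate check, and the percentages carry exact 95% binomial intervals that cover counting error only.

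H3K9me3 is laid down by methyltransferases such as SETDB1 and the SUV39H enzymes, and it is read by HP1 proteins that help to compact chromatin. In mouse ESCs it is known for silencing endogenous retroviruses, where KRAB zinc finger proteins recruit SETDB1 through TRIM28, and for marking repeats near centromeres. H3K36me3 is laid down by SETD2 along the bodies of genes as they are transcribed, so it is widely used as a mark of active transcription. Positions are given on build mm9, and no gene or repeat annotation of that build was used here. Labels of cell type could therefore not be set against marker genes.

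The H3K9me3 lists held 25867 islands in PiCs and 18464 in ESCs, with 3514489 tags in PiC islands and 1511058 in ESC islands. A tag is a sequenced fragment counted in an island. Tag counts were not scaled to library size, and the depth of the libraries is unknown. The input library was not used here, so islands could not be told apart from places that gather tags without antibody.

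Exact identity of the edges was the exception among these islands. Both edges were identical in 743 of the 3340 (22.2%), and over all 12235 autosomal 1-to-1 pairs the figure was 6.11%. In a further 1333 the larger shift was 200 bp, 1 step of the grid on which starts and ends lie, and in 1264 it was 400 bp. The PiC island was wider in 1557 (46.6%), narrower in 823 (24.6%) and of equal width in 960 (28.7%). The name matched extent thus covers a tilt: PiC edges lay outward more often than inward at both ends. The start lay outward in 674 islands by 200 bp and in 470 by 400 bp, and inward in 415 and 239. At the end the outward numbers were 666 and 468, and the inward numbers 419 and 221. Both edges lay outward in 413 islands and inward in 128. The tilt was not particular to matched islands: of pairs under 10 kb past the tolerance, 5609 had both PiC edges outward or equal and 906 had both inward or equal, which was 45.8% and 7.40% of all pairs.

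**Figure D1:**
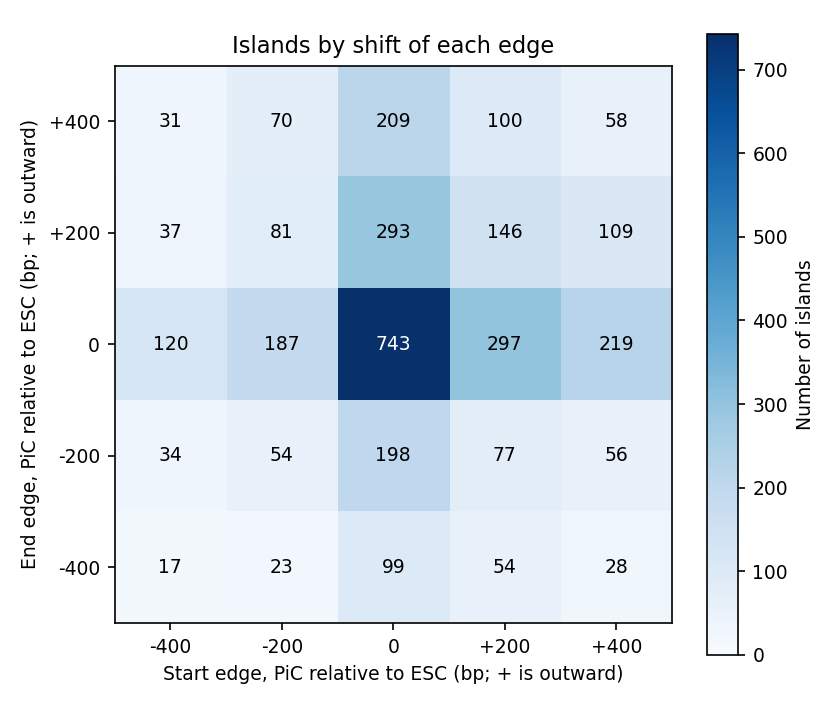
Number of matched islands for each combination of start shift (horizontal, bp) and end shift (vertical, bp) of the PiC edge relative to the ESC edge, with outward shifts positive. The cell with both edges identical holds 743 islands, and the cell with both edges 400 bp outward holds 58 against 17 with both 400 bp inward.

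For narrow islands a shift of 400 bp is a large part of the width. In 106 islands (3.17%) the PiC width was at least 1.5 times the ESC width, and in 29 (0.868%) the ESC width was at least 1.5 times the PiC width. In 10 islands the bases common to both made up less than 50% of their union, while the median was 89.5%. The median width was 2.4 kb in PiCs and 2.4 kb in ESCs, and widths ran from 0.2 to 9.8 kb in both. The remaining 8895 1-to-1 pairs had medians of 4.0 kb in PiCs and 2.6 kb in ESCs. In all, the matched islands covered 9.26 Mb in PiCs and 8.97 Mb in ESCs, which was 10.1% of the autosomal PiC coverage and 16.9% of the autosomal ESC coverage.

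The share of 1-to-1 pairs that met the rule was lower among wide islands. It was 29.3% for ESC islands of 1.2 to 2 kb (interval 27.8 to 30.8) and 29.3% for those of 2.2 to 3 kb (27.7 to 30.9). For islands of 5.2 to 6 kb it was 21.6% (18.2 to 25.2), and for those of 8.2 to 9.8 kb it was 16.3% (10.5 to 23.6). A tolerance fixed in bp is stricter, relative to width, for a wide island than for a narrow one. The pairs counted here also include those whose PiC island was 10 kb or wider, which the rule leaves out whatever their edges.

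**Figure D2:**
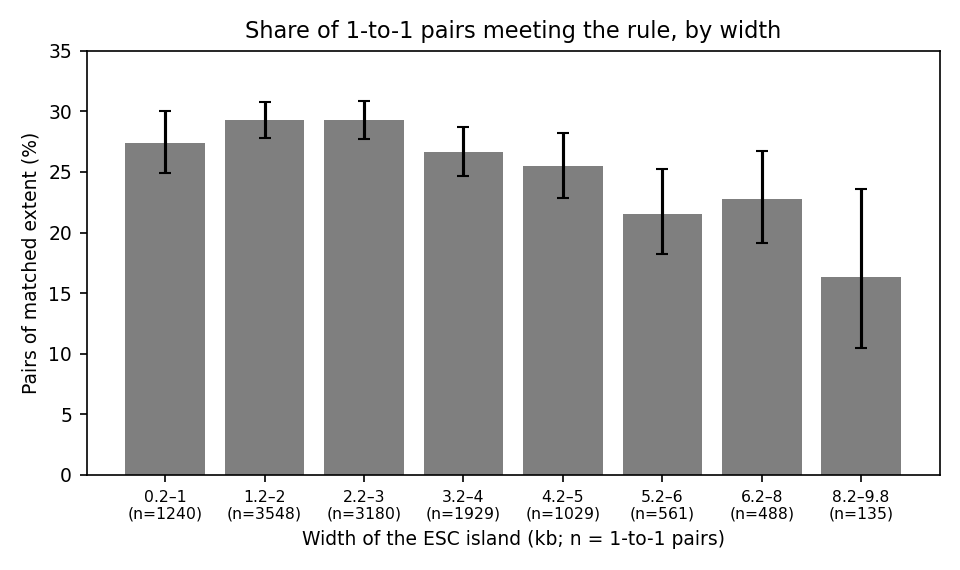
Share of autosomal 1-to-1 pairs that met the rule (percent, bars) by width of the ESC island (kb), with exact 95% binomial intervals as error bars and the number of pairs under each bar. The share is 29.3% at 1.2 to 2 kb and 16.3% at 8.2 to 9.8 kb.

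The widest matched islands were just under the limit of 10 kb. The widest lay on chromosome 8, at 4064601 to 4074200 in PiCs (9.6 kb, 334 tags) and at 4064401 to 4074200 in ESCs (9.8 kb, 201 tags). A second island of 9.8 kb, on chromosome 9 at 11783401 to 11793200 with identical edges, held 451 tags in PiCs and 241 in ESCs. These islands were wide without being dense, since matched islands had medians of 41.3 tags per kb in PiCs and 27.9 in ESCs. The island on chromosome 8 had 34.8 tags per kb in PiCs and 20.5 in ESCs, and that on chromosome 9 had 46.0 in PiCs and 24.6 in ESCs. Next were islands of 9.4 kb on chromosome 4 (4974801 to 4984200 in PiCs, 4975001 to 4984400 in ESCs), with 381 tags in PiCs and 193 in ESCs, and on chromosome 7 at 115973801 to 115983200, with 349 tags in PiCs and 212 in ESCs. The fifth, on chromosome 9 at 2999801 to 3009200, is described with the islands richest in tags.

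The limits of the rule cut through continuous distributions. Just inside, with a shift of 400 bp, were islands on chromosome 13 (51344201 to 51353800 in PiCs, 51344201 to 51353400 in ESCs) and on chromosome 18 (87246801 to 87256400 in PiCs, 87247201 to 87256400 in ESCs; 3112801 to 3120800 in PiCs, 3112601 to 3121200 in ESCs), with ratios of PiC over ESC tags per kb of 1.82, 1.82 and 1.47. Just outside, with a shift of 600 bp, were islands on chromosome 4 (48694801 to 48703600 in PiCs, 48694201 to 48703800 in ESCs), chromosome 12 (20232601 to 20241000 in PiCs, 20232001 to 20241000 in ESCs) and chromosome 10 (47109401 to 47117400 in PiCs, 47108801 to 47117400 in ESCs), with ratios of 1.20, 0.730 and 1.72. Pairs under 10 kb with a largest shift of 600 bp numbered 1015, against 1264 at 400 bp. By width, 27 pairs with matching edges were left out for reaching 10 kb, the narrowest on chromosome 2 at 11993601 to 12003600 in PiCs and 11993401 to 12003200 in ESCs. The next 2 lay on chromosome 9 (19567001 to 19577000 in PiCs, 19566601 to 19576600 in ESCs) and chromosome 15 (22289401 to 22299400 in PiCs, 22289601 to 22299400 in ESCs).

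Tag counts of the matched islands had a long upper tail. The median island held 97 tags in PiCs and 63 in ESCs, and the middle 50% held 65 to 148 tags in PiCs and 44 to 95 in ESCs. The densest was a 0.8 kb island on chromosome 9 at 35112601 to 35113400, with 1875 tags in PiCs and 949 in ESCs, or 2344 tags per kb in PiCs and 1186 in ESCs. On chromosome 2 the 5.6 kb island at 98502201 to 98507800 held 10373 tags in PiCs and 5097 in ESCs. Near the start of the chromosome 9 sequence lay the 9.4 kb island at 2999801 to 3009200, with 4943 tags in PiCs and 2471 in ESCs. A 4.6 kb island at 3034001 to 3038600 on the same chromosome held 3093 tags in PiCs and 1537 in ESCs. All 4 had identical edges in both conditions and touched no H3K36me3 island. Without the input they could not be told apart from places that gather tags without antibody.

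These 4 islands had nearly the same ratio of PiC over ESC tags per kb. It was 1.98 at 35112601 (counting interval 1.83 to 2.14), 2.04 on chromosome 2 (1.97 to 2.10), 2.00 at 2999801 (1.91 to 2.10) and 2.01 at 3034001 (1.89 to 2.14). Over all matched islands the median ratio was 1.5, and the middle 50% lay between 1.23 and 1.77. The list of dense islands was not uniform, however. On chromosome 15 the island at 59973001 to 59973800 in PiCs and 59972801 to 59973800 in ESCs held 255 tags in PiCs and 384 in ESCs, a ratio of 0.830 (0.706 to 0.975), and 80% of its ESC extent lay under H3K36me3 in both conditions. An island of 0.2 kb on chromosome 12 at 11115601 to 11115800 held 81 tags in PiCs and 54 in ESCs, a ratio of 1.5 (1.05 to 2.16). The fifth by ESC tags among islands with identical edges, on chromosome 9 at 123840801 to 123845000, held 1430 tags in PiCs and 902 in ESCs and lay wholly under H3K36me3 in both.

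Density and identity of edges went together. Of the 23 islands with a geometric mean of at least 150 tags per kb over both conditions, 20 (87.0%) had identical edges, and 12 were 200 bp wide in both. On the 200 bp grid, overlapping islands that are both 200 bp wide always have identical edges, so for these 12 identity was fixed by width. A small width also raises tags per kb, and the part of width in this link was not tested. Among the 1366 islands of 25 to 35 tags per kb 251 (18.4%) had identical edges, and among the 63 of 75 to 150 tags per kb 31 (49.2%). The 23 densest held 6.07% of the tags of all matched islands in PiCs and 4.98% in ESCs. On chromosome 9 lay 6 of these 23, and 160 of all 3340 matched islands. Ranks by tags per kb were partly kept between conditions, with a Spearman rho of 0.64 over the 3340 islands and of 0.31 over the other 8895 pairs. The points share their library, and in the other pairs widths differ more, which enters the density. Of the 334 islands with the most tags per kb in each condition, 175 (52.4%) were the same.

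**Figure D3:**
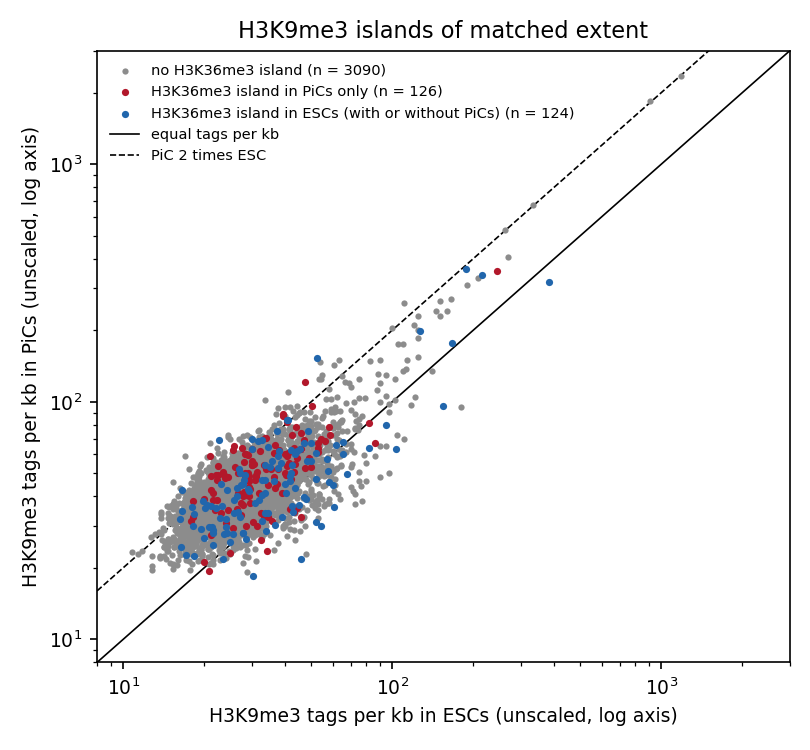
H3K9me3 tags per kb of each matched island in PiCs (vertical, log axis) and ESCs (horizontal, log axis), unscaled, with islands that touch H3K36me3 coloured. Most points lie above the line of equal tags, with a median ratio of 1.5, and the 4 islands with identical edges and the most tags lie along the dashed line of a ratio of 2.

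Ratios of tags per kb were set against the median of all 1-to-1 pairs, which was 1.34. Of the matched islands 376 (11.3%) were at least 1.5 times that median and 162 (4.85%) at most 1 over 1.5 of it, where all pairs gave 8.84% high and 14.8% low. By the ratio of the islands' tag counts, not divided by width, 25 (0.749%) were high and 726 (21.7%) low, where all pairs gave 16.1% high and 15.7% low. The median of the matched islands was 1.11 times that of all pairs per kb and 0.835 times by undivided tag counts, so its direction turned with the division by width. Neither ratio is over common bases, since tags outside a called island were not counted. A wider PiC island takes in tags over more bases, and the rule chose islands of matched width. Pairs outside the rule had median widths of 4.0 kb in PiCs and 2.6 kb in ESCs, and the part of width in these ratios was not tested.

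The highest ratios among the 2201 islands with at least 50 ESC tags were near 3. On chromosome 1 the island at 50219201 to 50224200 in PiCs (50219201 to 50223800 in ESCs) held 295 tags in PiCs and 78 in ESCs, a ratio per kb of 3.48 (2.70 to 4.53). A second island of chromosome 1, at 184558401 to 184561000 in PiCs and 184558201 to 184560600 in ESCs, held 265 tags in PiCs and 81 in ESCs (3.02, 2.35 to 3.92). The third, on chromosome 17 at 68089201 to 68091200 in PiCs and 68089401 to 68091600 in ESCs, held 306 tags in PiCs and 116 in ESCs (2.90, 2.34 to 3.62). It differed from the others in H3K36me3, since an ESC island of that mark covered all of its ESC extent and no PiC island touched it. Islands on chromosome 5 (37169201 to 37172600 in PiCs, 37169601 to 37172600 in ESCs) and chromosome 11 (28170801 to 28175400 in PiCs, 28171201 to 28175200 in ESCs) followed, with ratios of 2.86 and 2.81. By undivided tag counts, which use the same tags that chose these islands, all 5 were above the median of all pairs, at 1.42 to 2.03 times that median.

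The lowest ratios were near 0.5, with more tags in ESCs although the PiC list held more tags in all. The lowest was an 8.4 kb island on chromosome 6 at 30682801 to 30691200 in PiCs and 30682601 to 30691000 in ESCs, with 183 tags in PiCs and 385 in ESCs, or 21.8 per kb in PiCs and 45.8 in ESCs (ratio 0.475, 0.396 to 0.568). The next, also on chromosome 6 at 4696001 to 4699600 in PiCs and 4696001 to 4699800 in ESCs, held 82 tags in PiCs and 182 in ESCs (0.476, 0.362 to 0.621). These 2 had the most tags of the 5. Like those of the rest of the 5, their counting intervals lay below the median of 1.5, but make no allowance for picking the lowest of 2201 islands. The third, on chromosome 17 at 82373401 to 82375200 in PiCs and 82373401 to 82374800 in ESCs, held 69 tags in PiCs and 108 in ESCs (0.497, 0.362 to 0.678). The fourth was on chromosome 16 (31373601 to 31375000 in PiCs, 31373601 to 31374600 in ESCs), with 52 tags in PiCs and 73 in ESCs (0.509, 0.349 to 0.736). On chromosome 1 (53669801 to 53670800 in PiCs, 53670001 to 53670800 in ESCs) the fifth held 50 tags in PiCs and 78 in ESCs (0.513, 0.352 to 0.741).

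H3K36me3 was not used to choose the islands. Touching it varied with island width, which the rule used, so the shares are also given by width below. Most matched islands, 3090 of 3340 (92.5%), touched no H3K36me3 island in either condition, counting an overlap of 1 bp or more with the ESC extent. Those touching H3K36me3 numbered 236 with the PiC islands of that mark (7.07%, interval 6.22 to 7.99) and 124 with the ESC islands (3.71%, 3.10 to 4.41). All autosomal 1-to-1 pairs gave 7.78% with PiC and 4.29% with ESC H3K36me3, and all autosomal ESC islands 12.3% with PiC and 8.07% with ESC H3K36me3. The other pairs gave 8.05% (7.49 to 8.63) with PiC H3K36me3 and 4.51% (4.09 to 4.96) with ESC H3K36me3, and both intervals overlapped those of the matched islands. ESC islands with no PiC counterpart touched H3K36me3 in 27.0% with PiC islands and 21.2% with ESC islands. No test between these classes was made, because islands are not replicates.

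**Figure D4:**
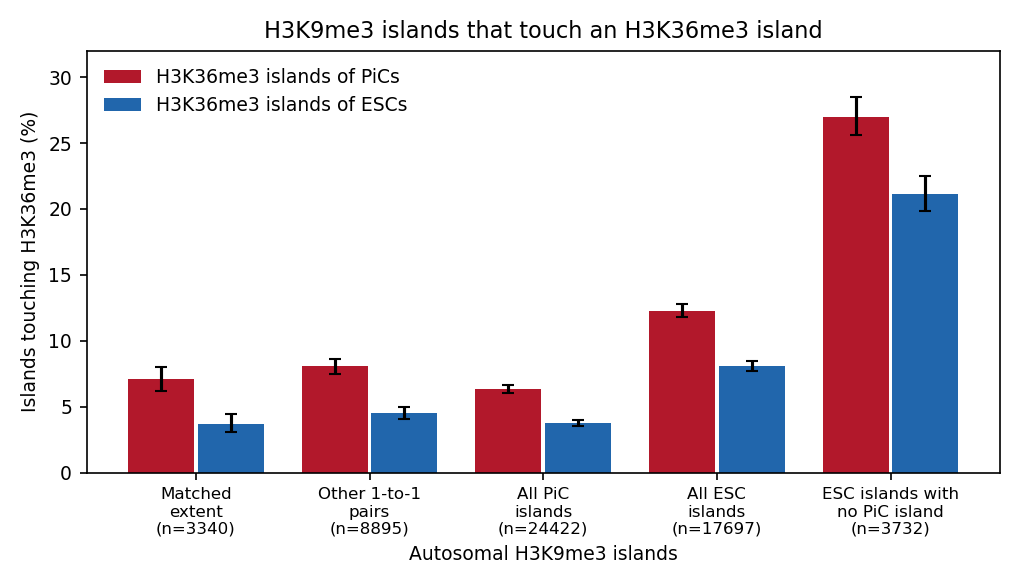
Share of autosomal H3K9me3 islands that touch an H3K36me3 island of PiCs (red) or of ESCs (blue), in percent with exact 95% binomial intervals, for 5 sets of H3K9me3 islands. Matched islands, at 7.07% (PiC) and 3.71% (ESC), have intervals that overlap those of the other 1-to-1 pairs, at 8.05% (PiC) and 4.51% (ESC), and lie below ESC islands with no PiC island, at 27.0% (PiC) and 21.2% (ESC).

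The comparison with the other pairs was also made within classes of ESC width. For ESC widths of 0.2 to 1.4 kb the share touching PiC H3K36me3 was 5.62% in matched islands (4.04 to 7.57) and 4.04% in other pairs (3.18 to 5.04). For widths of 3.8 kb to the limit it was 12.5% in matched islands (10.0 to 15.2) and 13.7% in other pairs (12.2 to 15.2). With ESC H3K36me3 this wide class gave 4.95% (3.43 to 6.89) in matched islands and 7.78% (6.68 to 9.0) in other pairs. The last of these differences was the widest, with intervals that overlapped only between 6.68% and 6.89%. Narrower classes went either way with ESC H3K36me3. At 0.2 to 1.4 kb it was 3.51% in matched islands and 2.40% in other pairs, and at 1.6 to 2.4 kb 3.02% and 2.82%. At 2.6 to 3.6 kb it was 3.79% in matched islands and 4.47% in other pairs.

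Matched islands that touched H3K36me3 in only 1 condition did so mostly in PiCs. H3K36me3 lay on 110 islands in both conditions, on 126 in PiCs only and on 14 in ESCs only. The other pairs showed the same imbalance, with 377 in both, 339 in PiCs only and 24 in ESCs only. The H3K36me3 list of PiCs was the longer, with 16363 autosomal islands against 11971 in ESCs. Over all chromosomes the ESC list held more tags in islands, 26055650 against 15787192 in PiCs. Its islands were also wider, with a median of 12.8 kb against 8.6 kb in PiCs. The part of list size in the imbalance was not tested. The shares were also taken with the 50% of each H3K36me3 list that held the most tags. They were then 2.10% of matched islands (1.64 to 2.64) in PiCs and 1.89% (1.45 to 2.41) in ESCs. Both shares are over the same matched islands, so these separate intervals do not measure the imbalance.

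The H3K36me3 islands seen at matched islands in PiCs only were short, as they were at the other pairs. Their median width was 4.1 kb and their median density 44.6 tags per kb. The 344 seen in PiCs only at the other pairs had medians of 4.2 kb and 44.0 tags per kb, and all autosomal PiC H3K36me3 islands had medians of 8.8 kb and 49.2 tags per kb. Of these 126 H3K36me3 islands 95 (75.4%, interval 66.9 to 82.6) had at least 50% of their length under the H3K9me3 island, and 5 overlapped any ESC H3K36me3 island. Both edges of 28 (22.2%, 15.3 to 30.5) fell within 400 bp of the edges of the PiC H3K9me3 island. At the other pairs, whose H3K9me3 islands were wider, this held for 34 of 344 (9.88%, 6.94 to 13.5), and 79.9% lay under H3K9me3 over 50% or more of their length. At the 110 islands touched in both conditions the H3K36me3 islands were wider, with medians of 9.8 kb in PiCs and 12 kb in ESCs, and 29.9% of the PiC and 20.6% of the ESC ones were covered by H3K9me3 over 50% or more of their length.

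Median H3K9me3 density was higher where H3K36me3 was also called. Islands touching PiC H3K36me3 had medians of 47.1 H3K9me3 tags per kb in PiCs and 32.5 in ESCs. Islands touching no H3K36me3 had medians of 41.0 in PiCs and 27.5 in ESCs. They were also wider, at 2.8 kb against 2.4 kb in ESCs, and the part of width or of tags that gather without antibody in this overlap was not tested. The median ratio of PiC over ESC H3K9me3 tags per kb was 1.33 in islands touching ESC H3K36me3, 1.48 in those touching it in PiCs only and 1.5 in those touching none.

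At least 50% of the ESC extent was under H3K36me3 in both conditions in 102 matched islands (3.05%, interval 2.50 to 3.70), against 3.54% of all pairs and 331 of the other pairs (3.72%, 3.34 to 4.14). All of it was in 54 matched islands (1.62%, 1.22 to 2.10), against 2.02% of all pairs and 193 of the other pairs (2.17%, 1.88 to 2.49). The intervals overlapped in both comparisons. The first 5 of these 54 in chromosome order, all on chromosome 1, had H3K9me3 ratios on either side of the median of 1.34 over all pairs. The island at 13145801 to 13148000 in PiCs and 13145801 to 13148200 in ESCs held 104 tags in PiCs and 125 in ESCs. At 72443401 to 72446000 in PiCs and 72443801 to 72445800 in ESCs there were 69 tags in PiCs and 57 in ESCs. Their ratios were 0.908 (0.693 to 1.19), an interval that lies below the median of 1.34, and 0.931 (0.646 to 1.35), an interval that reaches it. The others had ratios of 1.39 (53339801 to 53343200 in PiCs, 53339601 to 53342800 in ESCs), 1.71 (57429201 to 57430800 in both) and 1.63 (153260801 to 153265400 in PiCs, 153260401 to 153265000 in ESCs).

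The share of ESC islands that were matched was lower in regions richer in H3K36me3, and the shares of 1-to-1 pairs had overlapping intervals. These intervals cover counting error only, as islands are not replicates. The autosomes were cut into windows of 5 Mb and ranked into 4 classes by how much of each lay under ESC H3K36me3. In the poorest class, with a mean coverage of 1.56%, 1004 of 4425 ESC islands were matched (22.7%, interval 21.5 to 24.0). In the richest class, with 20.2%, 693 of 5105 were (13.6%, 12.6 to 14.5). Taken as a share of 1-to-1 pairs the values were 27.7% (26.3 to 29.2) in the poorest and 26.9% (25.2 to 28.6) in the richest. ESC islands in a 1-to-1 pair numbered 3621 in the poorest and 2580 in the richest class.

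**Figure D5:**
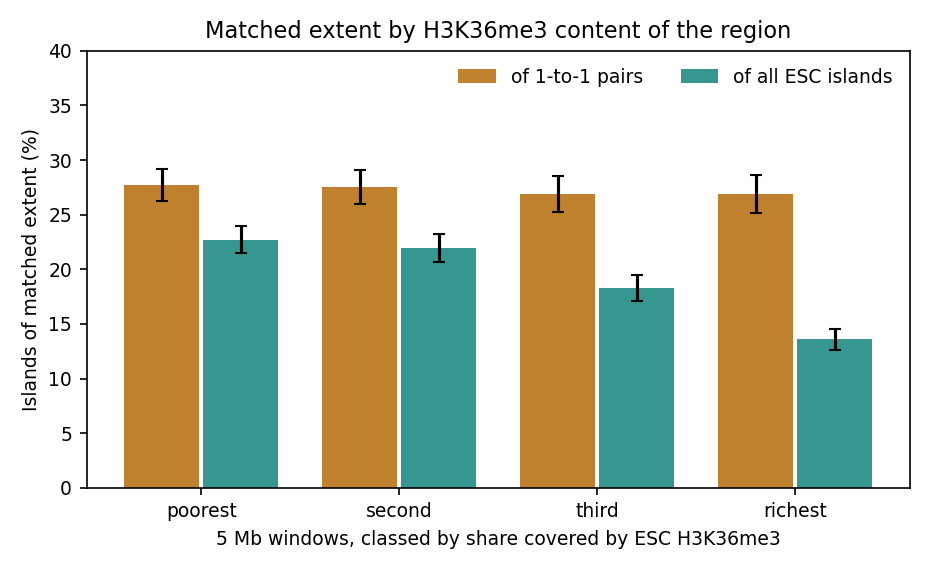
Matched islands as a share of 1-to-1 pairs (brown) and of all ESC H3K9me3 islands (green), in percent with exact 95% binomial intervals, in 4 classes of 5 Mb windows ordered from poorest to richest in ESC H3K36me3. The share of ESC islands is 22.7% in the poorest and 13.6% in the richest class, while the share of pairs is 27.7% and 26.9%.

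By chromosome the share of ESC islands and the share of pairs ranked chromosome 15 differently and chromosome 16 alike. H3K36me3 content was not measured per chromosome. As a share of ESC islands, matched islands were fewest on chromosome 15, with 164 of 1107 (14.8%, interval 12.8 to 17.0), and most frequent on chromosome 16, with 136 of 594 (22.9%, 19.6 to 26.5). As a share of 1-to-1 pairs chromosome 15 stood at 28.7% (25 to 32.6), near the 27.3% of all autosomes. Chromosome 1 was lowest by that measure, with 329 of 1376 pairs (23.9%, 21.7 to 26.3), and was also low as a share of ESC islands, at 16.1% (14.5 to 17.7). Chromosome 16 was highest by both, at 30.8% of pairs (26.6 to 35.4), an interval that holds the 27.3% of all autosomes. Which autosome was lowest or highest depended on the settings: by share of ESC islands these were chromosomes 15 and 3 with edges within 200 bp, and 11 (13.9%) and 10 (20.9%) with the 50% of islands with the most tags. Of 503 windows of 5 Mb that held H3K9me3 islands, 7 held no matched island, and the median number was 6. The highest number was 23, on chromosome 3 from 5000001 to 10000000, among 124 PiC and 80 ESC islands. These were 28.75% of the ESC islands of that window. Within 5 Mb of the first island of a chromosome, the end that holds the centromere in mouse autosomes, lay 246 of the matched islands (7.37%, 6.50 to 8.30) and 7.97% of the other pairs (7.42 to 8.55). For all autosomal ESC islands the share was 7.43% (7.05 to 7.83).

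Matched islands had nearer H3K9me3 neighbours than the other pairs by median distance. The nearest other island of the same list lay at a median distance of 9.0 kb in PiCs and 19 kb in ESCs, and for the other pairs at 11.4 kb in PiCs and 23.8 kb in ESCs. A further ESC island lay within 10 kb of 39.8% of matched islands (interval 38.1 to 41.5) and of 32.6% of the other pairs (31.7 to 33.6). A PiC island with no ESC counterpart lay within 10 kb of 775 matched islands (23.2%, 21.8 to 24.7) and of 22.4% of the other pairs (21.5 to 23.3), and these intervals overlapped. A PiC island that widens over a neighbouring ESC island ceases to be 1-to-1, and the part of this in the distances was not tested. At the other extreme, 276 matched islands (8.26%, 7.35 to 9.25) and 661 of the other pairs (7.43%, 6.89 to 8.0) had no other island within 100 kb in either list, and these intervals overlapped.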

How the data were processed

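SICER and build mm9 are named in the submitters' processing notes, and SICER joins enriched windows into islands. Its settings, the aligner and the use of the input are not given in the sources at hand. Each of 4 deposited lists, 1 per library, holds chromosome, start, end and a whole number per island. The deposited number was taken for a raw tag count, with no scaling between libraries. Starts and ends lay on a 200 bp grid, and positions are given 1-based. Other deposited columns are island coordinates in bp.

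Islands were matched with scripts in Python (version 3.11.15; pandas 2.3.3, numpy 2.4.6, scipy 1.17.1), and plots used matplotlib 3.10.9. The matching was tested on simulated lists made from the 17697 autosomal ESC islands, and found 5390 of 5390 planted matched islands. With 1 library per group there was no test. Ratios carry intervals from the exact binomial share of PiC tags, which cover counting error only, as PCR copies are not independent. The members, measures and alternatives were chosen with earlier results of these data known.

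The regions named are, among matched islands, the 5 with the most ESC and with the most PiC tags per kb, the 5 widest in ESCs, the 5 with most ESC tags and identical edges, the 5 highest and lowest ratios with at least 50 ESC tags, the 5 most covered by H3K36me3 in both conditions, and 3 on each side of the limits. Gene tables of GRCm38.p6 do not share the coordinates of mm9, so no gene names, features, planned gene lists or sequences were used. Alternatives were other tolerances and width limits, stricter, equal-sized or joined lists, stricter overlaps and other windows.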

Additional observations from a re-analysis of the deposited data

How the results depend on the processing

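No paired analysis was possible because there was 1 library per mark and condition, and for that reason no replicate could be left out. The number of matched islands was 2076 with edges within 200 bp, 743 with identical edges and 1512 with the 50% of islands with the most tags. As a share of ESC islands these settings gave 11.7%, 4.20% and 16.9%. That share was 24.6% with edges within 600 bp, 17.0% with a width limit of 5 kb, 13.7% with lists of equal size and 17.2% with islands joined over 2 kb. The share touching H3K36me3 was 9.85% (PiC) and 4.70% (ESC) with the 50% of H3K9me3 islands with the most tags, and 2.10% and 1.89% with the 50% of H3K36me3 islands with the most tags. The median tag ratio of matched islands over that of all pairs was 1.13 with identical edges, 1.13 with the 50% with most tags, 1.16 with lists of equal size, 1.04 where an overlap had to span 50% of each island and 0.835 by tag counts not divided by width, which is below 1. That last setting was planned as tags over the union of both islands, for which the lists give no counts. The lowest and highest autosome were chromosome 15 (8.67%) and chromosome 3 (14.6%) with edges within 200 bp, and chromosome 11 (13.9%) and chromosome 10 (20.9%) with the 50% of islands with the most tags. For the settings not named here the values stayed within the interval of the reported one, or within 1.5 times for the number. The causes were not tested. Unknown depth limits every comparison of tags between the conditions.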

Other observations

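Chromosomes X and Y were left out by the rule. On chromosome X 193 of 742 ESC islands met the same limits on edges and width (26.0%), or 31.5% of its 612 1-to-1 pairs, with a median ratio of PiC over ESC tags per kb of 1.47. Both values were above those of every autosome, whose highest were 22.9% and 30.8%, on chromosome 16. The intervals of chromosome 16 reached 26.5% and 35.4%, above both values of chromosome X, for which no interval was computed. On chromosome Y 3 of 25 ESC islands did.

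After chromosome 3 from 5000001 to 10000000, the 5 Mb windows with the most matched islands were chromosome 3 from 15000001 to 20000000, with 22 among 120 PiC and 78 ESC islands, and chromosome 1 from 30000001 to 35000000, with 20 among 110 PiC and 76 ESC islands. The choice of these windows was made from their values.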
